A study of Mus musculus with 4 samples.

Results

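Fibrillar and fibril-associated collagens of bone were described here through 10 genes, taken as the rows of the count matrix for Col1a1, Col1a2, Col3a1, Col5a1, Col5a2, Col6a1, Col6a2, Col6a3, Col12a1 and Col22a1. They are 10 of 31053 genes in the matrix, of which 22515 had at least 1 unique molecular identifier (UMI, standing for 1 captured transcript), and all 10 were detected. The cells came from the proximal and distal tibiae of 1 male mouse at postnatal day 6 (P6), with 2 tibiae pooled. This animal carried Col10a1Cre, the Rosa26-Tdtomato reporter, Irx3 +/Δ and Irx5 +/-, and served as the Irx3/5 heterozygous control. Col10a1Cre acts in hypertrophic chondrocytes (HCs) and therefore marks these cells and their descendants, the HC-derived osteogenic cells. The study names the Irx3 deletion as specific to HCs, whereas Irx5 +/- was carried by every cell, so HC origin and a reduced Irx3 dose cannot be told apart here. The 4 sequencing entries are 1 library, so there was no replicate, no test and no p-value, and the intervals given cover counting error only.

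Collagen fibres of bone are built mainly from type I collagen, a trimer of the Col1a1 and Col1a2 chains. Type V collagen, made with the Col5a1 and Col5a2 chains, is needed to start fibrils and sets their width, and type III collagen, made from Col3a1 alone, joins type I fibrils in soft and extensible tissue. Type VI collagen, built from the Col6a1, Col6a2 and Col6a3 chains, forms beaded filaments near cells, while types XII and XXII, from Col12a1 and Col22a1, belong to the collagens that attach to fibril surfaces, with type XXII known from tissue junctions such as that of muscle and tendon.

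In mouse GRCm38 the members lie on 7 chromosomes, with 2 pairs of neighbours. Col3a1 (ENSMUSG00000026043, chr1:45311538-45349706, plus strand) and Col5a2 (ENSMUSG00000026042, chr1:45374321-45503282, minus strand) are 24.6 kb apart and end towards each other. Col6a1 (chr10:76708792-76726168) and Col6a2 (chr10:76595762-76623630) are 85.2 kb apart, both on the minus strand. The others are Col1a1 (chr11:94936224-94953042), Col1a2 (chr6:4504814-4541544), Col5a1 (chr2:27886425-28039514), Col6a3 (chr1:90765923-90843971), Col12a1 (chr9:79598991-79718831) and Col22a1 (chr15:71795795-72034227).

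The bases just upstream of the start sites of Col3a1, Col5a1 and Col6a3 are shown as examples of types III, V and VI. Col5a1 was higher, and Col3a1 and Col6a3 were lower, in mature than in immature osteoblast-like cells. Each sequence holds the 150 bases before the RefSeq start site (GRCm38.p6), written 5′ to 3′ on the gene's strand, at chr1:45311388-45311537 (plus), chr2:27886275-27886424 (plus) and chr1:90843972-90844121 (minus). Capitals mark matches to the 3 motifs searched, CCAAT and GGGCGG on both strands and TATAAA on the gene's strand.
Col3a1: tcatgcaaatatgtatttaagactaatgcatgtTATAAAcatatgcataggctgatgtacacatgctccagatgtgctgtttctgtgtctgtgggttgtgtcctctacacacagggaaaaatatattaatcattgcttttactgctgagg
Col5a1: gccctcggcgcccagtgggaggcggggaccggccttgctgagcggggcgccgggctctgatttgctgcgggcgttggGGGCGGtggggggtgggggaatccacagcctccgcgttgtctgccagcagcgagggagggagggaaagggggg
Col6a3: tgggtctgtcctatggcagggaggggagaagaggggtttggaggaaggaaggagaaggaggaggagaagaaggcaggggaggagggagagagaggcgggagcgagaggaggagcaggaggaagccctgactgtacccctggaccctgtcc
The Col3a1 window held TATAAA, from 117 to 112 bases before the start, as did 4.84% of 32851 RefSeq promoter windows of this length. The Col5a1 window held GGGCGG from 73 to 68 bases before the start, a motif found in 28.6% of windows. None of the 3 motifs was in the Col6a3 window, and CCAAT, found in 24.5% of all windows, was in none of those shown. The table held a start site for 6 of the 10 members, and a match describes letters only. Among the windows not shown, that of Col1a2 held CCAAT and a Col6a2 window held GGGCGG. Both of these windows include bases of annotated exons of the gene.

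The gene matrix holds 14181 barcodes with 500 to 85279 UMIs each. After filters on gene number and on mitochondrial and ribosomal UMIs, 8255 cells with a median of 13957 UMIs remained. They were grouped into 12 classes by markers that include none of the members, and the members were also left out of the genes used for clustering. The classes that bear on bone were stromal progenitor-like (196 cells, led by Cxcl12 and Adipoq), immature osteoblast-like (227 cells, led by Mmp9 and Mmp13), cycling osteogenic (121 cells), mature osteoblast-like (259 cells, led by Bglap genes and Ifitm5) and osteocyte-like cells (17 cells, led by Pdpn, Dmp1 and Phex). Sost, which encodes the osteocyte protein sclerostin, was at 259 CPM (counts per 1000000 UMIs of a class) in the osteocyte-like class and had no UMI in the immature one. Fibroblast-like (281 cells), pericyte or smooth muscle-like (100 cells) and endothelial-like cells (819 cells) were compared with them, and 658 red blood cell-like cells were taken as the measure of free RNA. The red blood cell-like clusters differed in this measure. Col1a1 was at 222 CPM in the cluster led by Slc4a1 and 108 CPM in that led by Car1, whereas Col5a1 was at 18.8 and 42.6 CPM. Leukocyte-like cells held more of most members than red blood cell-like cells did. A sub-cluster of 178 osteogenic cells led by Aspn, Vcan, Ogn and Postn had more fibroblast than osteoblast markers among its leading genes and was given no name.

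Counted in UMIs, the type I chains were the most abundant members in osteogenic cells. Their levels were higher from class to class along the osteogenic order. Col1a1 was at 1454 CPM in stromal progenitor-like, 14078 CPM in immature osteoblast-like, 76791 CPM (95% interval 76553 to 77030) in mature osteoblast-like and 107329 CPM (105987 to 108684) in osteocyte-like cells. Col1a2 followed the same order, at 2229, 13424, 72458 and 94573 CPM. The 10 members together made up 0.789% of all UMIs in stromal progenitor-like cells, 3.25% in immature osteoblast-like, 15.5% in mature osteoblast-like and 20.8% in osteocyte-like cells, and type I gave 96.4% of these collagen UMIs in the mature class against 46.7% in the stromal one. Within the immature class the cells were far from uniform. The 10th percentile of Col1a1 per cell was 526 CPM, the median 3563 CPM and the 90th percentile 36077 CPM, whereas in mature cells these values were 38987, 72478 and 113221 CPM.

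**Figure D1:**
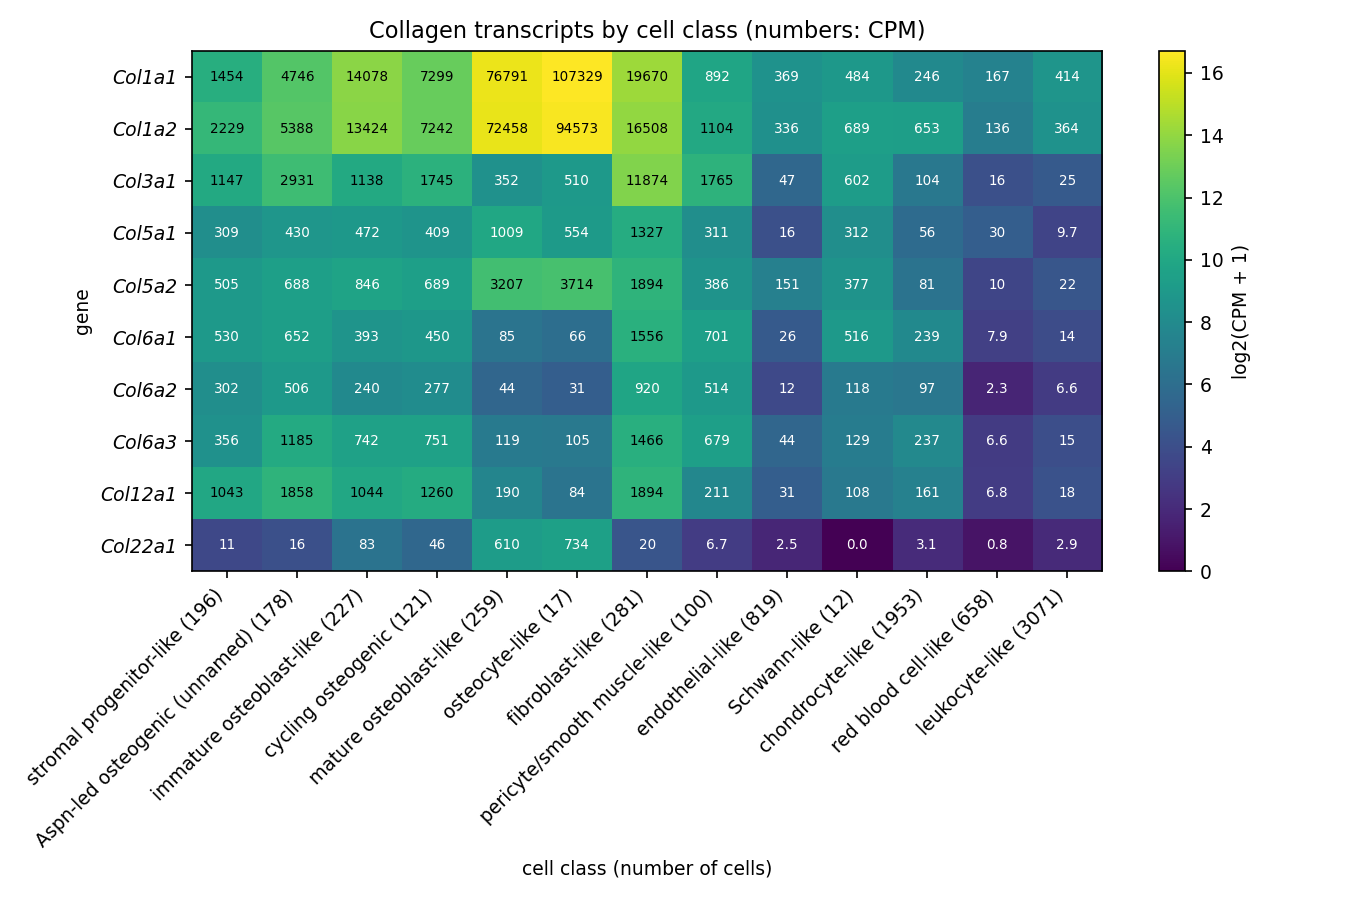
Levels of the 10 collagen genes (rows) in each cell class (columns, number of cells in brackets), as log2(CPM + 1) in colour and CPM as numbers. Type I genes were highest in osteocyte-like and mature osteoblast-like cells, while Col3a1, the type VI genes and Col12a1 were highest in fibroblast-like cells.

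Type I RNA was also found in cells that are not thought to make it. Col1a1 was at 167 CPM and Col1a2 at 136 CPM in red blood cell-like cells, with a UMI for Col1a1 in 53.3% of those cells after each cell was thinned to 5000 UMIs (89.8% without thinning, median depth 14091 UMIs, 3 cells left out). In endothelial-like cells (median depth 9015 UMIs, 89 cells left out) the thinned share was 64.9% (87.3% without thinning) and in leukocyte-like cells (median depth 11587 UMIs, 229 left out) 59.3% (87.9% without thinning). The Col1a1 levels of endothelial-like (369 CPM), leukocyte-like (414 CPM) and chondrocyte-like cells (246 CPM) were above that of red blood cell-like cells. How much of each is free RNA was not tested.

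In all, 5 members were at least 2-fold higher in mature than in immature osteoblast-like cells, and 5 were at least 2-fold lower. Among 7923 genes with at least 10 CPM in either class, 4.42% were 2-fold higher and 18.7% were 2-fold lower, with a median log2 ratio of -0.44. The higher members were both type I chains, both type V chains and Col22a1, and the lower ones were Col3a1, the 3 type VI chains and Col12a1. The number of higher members was 5 in all 14 alternatives of the processing that gave both classes, and that of lower members was 4 or 5.

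**Figure D2:**
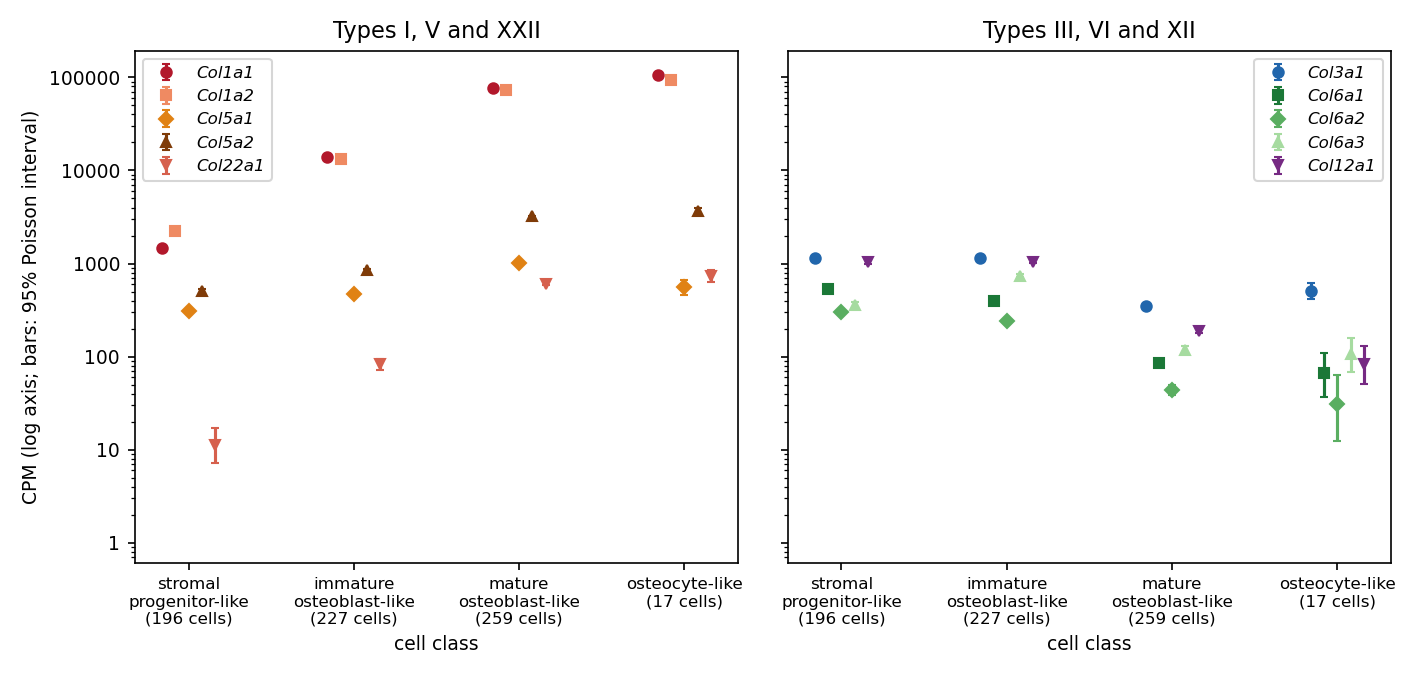
CPM on a log axis of the members in 4 osteogenic classes, with 95% Poisson intervals of the summed counts. The left panel shows the genes that were higher in mature than in immature osteoblast-like cells, and the right panel shows Col3a1, type VI and Col12a1, which were lower there.

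Among the higher genes, Col1a1 and Col1a2 had log2 ratios of 2.45 (95% counting interval 2.43 to 2.46) and 2.43 (2.42 to 2.45). The Col1a1 ratio ranged from 2.13 to 5.85 over the 14 alternatives. Col5a1 differed less between the classes, with 472 and 1009 CPM (log2 ratio 1.09, 1.01 to 1.18). Its partner Col5a2 was at 846 and 3207 CPM (log2 ratio 1.92, 1.86 to 1.98). In osteocyte-like cells Col5a1 was at 554 CPM, below its level in mature cells (log2 ratio -0.86, -1.13 to -0.61), while Col5a2 was at 3714 CPM (log2 ratio 0.21, 0.11 to 0.31).

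Col22a1 was a gene of the most differentiated classes. It was at 11.4 CPM in stromal progenitor-like cells, 82.7 CPM in immature osteoblast-like, 610 CPM in mature osteoblast-like and 734 CPM in osteocyte-like cells, a log2 ratio of 2.87 (2.68 to 3.06) between mature and immature cells. A Col22a1 UMI was present in 89.2% of mature cells thinned to 5000 UMIs (98.5% without thinning, median depth 18566 UMIs, none left out) and in 19.6% of immature cells (28.2% without thinning, median depth 11245 UMIs, 3 left out), against 0.763% in red blood cell-like cells (1.37% without thinning). Outside the osteogenic lineage no class exceeded 19.9 CPM, the level in fibroblast-like cells. There, 29.7 CPM were found in the cluster led by Mfap5 and Tnmd, a tenocyte gene, and 4.33 CPM in the cluster led by Aspn and Postn. In 12 Schwann-like cells no Col22a1 UMI was counted, where 3 UMIs, the limit taken for a count of 0, would be 32.3 CPM and the exact Poisson interval reaches 39.7 CPM.

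The genes of types VI and XII went the other way. Col6a1 was at 530 CPM in stromal progenitor-like, 393 CPM in the immature class and 84.7 CPM in the mature one (log2 ratio mature over immature -2.20, -2.36 to -2.04). Col6a2 and Col6a3 had log2 ratios of -2.42 (-2.64 to -2.20) and -2.63 (-2.76 to -2.50), and all 3 type VI genes kept this direction in the 14 alternatives. Col6a3 alone of the trio was higher in immature than in stromal cells, at 742 against 356 CPM (log2 ratio 1.06, 0.94 to 1.18), whereas the ratios of Col6a1 and Col6a2 were -0.43 (-0.55 to -0.31) and -0.33 (-0.49 to -0.17). Col12a1 was level between stromal progenitor-like (1043 CPM) and immature osteoblast-like cells (1044 CPM), and it was at 190 CPM in mature cells (log2 ratio -2.45, -2.55 to -2.35). In the comparison of immature with stromal cells, 4 members were at least 2-fold higher (Col1a1, Col1a2, Col6a3 and Col22a1) and none was 2-fold lower, against 2.21% and 7.92% of 8412 genes.

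Col3a1 was at 1147 CPM in stromal progenitor-like, 1138 CPM in immature osteoblast-like and 1745 CPM in cycling osteogenic cells, and at 352 CPM in mature osteoblast-like cells (log2 ratio mature over immature -1.69, -1.77 to -1.61). Unlike type VI and Col12a1, this difference depended on the grouping of the cells. It was reversed, at 0.71, with a minimum of 2000 genes per cell, where only 58 cells were immature and 89 were mature osteoblast-like. It was also reversed, at 0.12, without doublets, where 139 were immature and 177 were mature. The 227 immature and 259 mature cells held 0 doublets, so none of them was removed there and the cells were only grouped differently. Unnamed osteogenic sub-clusters led by fibroblast markers held 294 and 249 cells in these settings, against 178. In the other 12 alternatives the difference was negative, between -3.10 and -0.75. In mature cells Col3a1 came from a minority of cells, since the median cell had none, the 90th percentile was 908 CPM and 33.6% of the thinned cells held a UMI (47.9% without thinning), against 4.27% of red blood cell-like cells (12.2% without thinning).

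**Figure D3:**
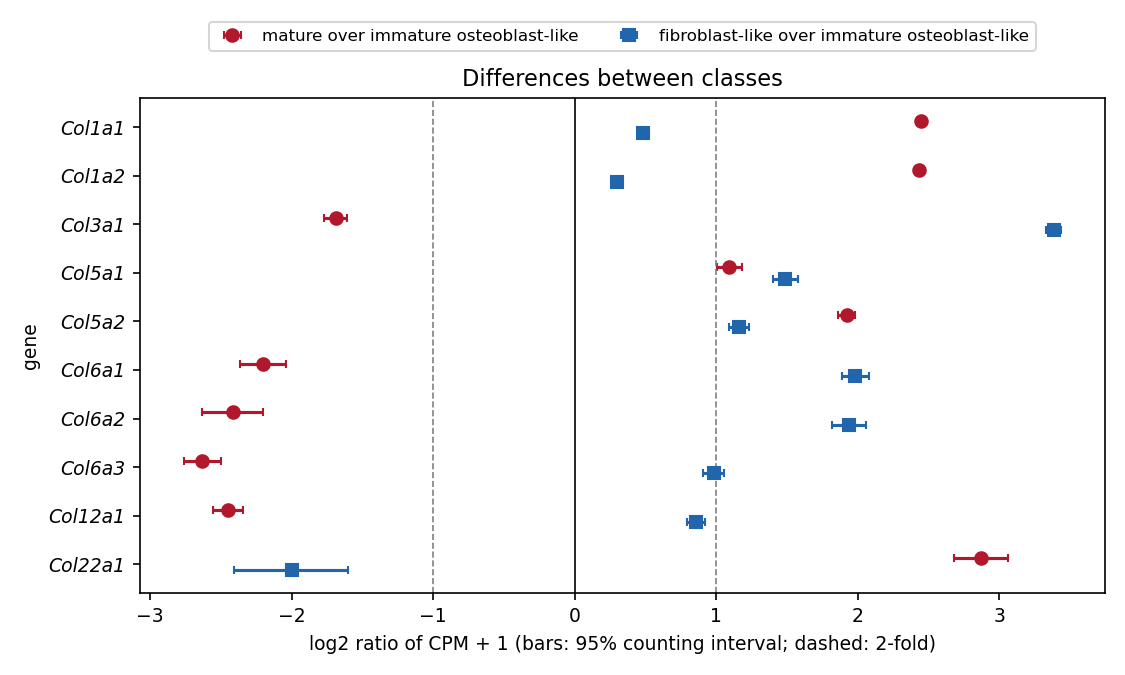
Log2 ratio of CPM + 1 of each gene between mature and immature osteoblast-like cells (circles) and between fibroblast-like and immature osteoblast-like cells (squares), with 95% counting intervals and dashed lines at 2-fold. Col3a1, type VI and Col12a1 lie on opposite sides of 0 in the 2 comparisons, and so does Col22a1, in the reverse direction.

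The unnamed sub-cluster led by Aspn differed in Col1a1 and Col3a1 from both the fibroblast-like and the immature osteoblast-like class. It held 4746 CPM of Col1a1, below both classes, and 2931 CPM of Col3a1, above the immature one (log2 ratio over immature 1.36, 1.30 to 1.43). Its Col12a1 level, 1858 CPM, was within the counting interval of that in fibroblast-like cells (1894 CPM, log2 ratio -0.03, -0.09 to 0.03), whereas its Col3a1 was lower than theirs (log2 ratio -2.02, -2.06 to -1.98). Mature osteoblast markers summed to 997 CPM in it, against 2405 CPM for the immature class. Immature osteoblast markers summed to 15489 CPM in the sub-cluster, against 41595 CPM in the immature and 1739 CPM in the fibroblast-like class. This order did not hold for every immature marker. Wif1 was at 1352 CPM in the sub-cluster, 621 CPM in the immature and 99.4 CPM in the fibroblast-like class. By contrast, Mmp13 was at 1239, 5596 and 123 CPM and Mmp9 at 71.3, 2471 and 37.6 CPM in the same groups. Fibroblast markers summed to 2865 CPM in the sub-cluster, against 1539 CPM in the immature and 10587 CPM in the fibroblast-like class. Counting these 178 cells as immature changed the mature over immature ratio of Col3a1 to -2.37 and that of Col1a1 to 2.87.

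Fibroblast-like cells had the highest Col3a1 of all classes, 11874 CPM, and also the highest levels of the 3 type VI chains (1556, 920 and 1466 CPM for Col6a1, Col6a2 and Col6a3), Col5a1 (1327 CPM) and Col12a1 (1894 CPM). Against immature osteoblast-like cells 5 members were at least 2-fold higher and 1, Col22a1, was 2-fold lower, where 15.5% of 8959 genes were higher and 6.25% lower. Col3a1 had the largest ratio of the members, with a log2 value of 3.38 (3.33 to 3.43), and every thinned fibroblast-like cell held a Col3a1 UMI (the same share without thinning, median depth 9441 UMIs, 6 left out). Col6a1 and Col6a2 had ratios of 1.98 and 1.93, and Col6a3 and Col12a1 lay just under the 2-fold line at 0.98 (0.91 to 1.06) and 0.86 (0.79 to 0.92). Type I genes differed less in the main processing, with Col1a1 at 19670 CPM (log2 ratio 0.48, 0.46 to 0.50). This depended on the processing, since over 13 alternatives the Col1a1 ratio ranged from 0.33 to 3.75 and that of Col1a2 from 0.21 to 2.66. The lower Col22a1 level (log2 ratio -2.00, -2.41 to -1.60) changed sign in 3 of 13 alternatives.

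Red blood cell markers summed to 9610 CPM in the fibroblast-like and 626 CPM in the immature class, and chondrocyte markers to 5353 and 904 CPM, with Col2a1 at 2627 and 469 CPM. Their part in the ratios between these classes was not tested. In red blood cell-like cells, Col3a1 was at 16.0 CPM and Col12a1 at 6.80 CPM, and in chondrocyte-like cells at 104 and 161 CPM, all below the levels in fibroblast-like cells.

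The fibroblast-like class joined 2 clusters that used the members differently. The cluster led by Mfap5 and Tnmd (161 cells) had more Col6a1 (1788 against 1184 CPM, log2 ratio 0.59, 0.50 to 0.69) and Col6a2 (1121 against 598 CPM, log2 ratio 0.91, 0.78 to 1.03). The cluster led by Aspn and Postn (120 cells) had more Col12a1, at 2769 against 1347 CPM (log2 ratio of the first cluster over this one -1.04, -1.12 to -0.96), and more Col1a1, at 25868 against 15804 CPM. Col6a3 was nearly equal in both, at 1425 and 1531 CPM, unlike the other chains of its trimer.

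Of the vascular classes, pericyte or smooth muscle-like cells held more of each member than endothelial-like cells as a whole did, though for Col22a1 the intervals overlapped. Col12a1 was at 211 CPM and Col22a1 at 6.70 CPM (2.69 to 13.8) in pericyte or smooth muscle-like cells, against 2.51 CPM (1.62 to 3.71) of Col22a1 in endothelial-like cells. Col5a2 was at 386 CPM (350 to 426) in pericyte or smooth muscle-like cells, below its level in the Eln-led endothelial cluster described below. In pericyte or smooth muscle-like cells, Col3a1 was the most abundant of the 10 in UMIs, at 1765 CPM, and was detected in every cell, while Col6a1 was at 701 CPM, Col6a2 at 514 CPM and Col6a3 at 679 CPM, each below fibroblast-like cells. Type VI gave 28.8% of the collagen UMIs there, type III 26.9% and type I 30.4%. Col1a1 was at 892 CPM in this class, against 414 CPM in leukocyte-like cells. Red blood cell markers summed to 24421 CPM in pericyte or smooth muscle-like cells and chondrocyte markers to 6487 CPM. Their part in these collagen levels was not tested. Endothelial-like cells held 47.3 CPM of Col3a1, 25.5 CPM of Col6a1 and 31.4 CPM of Col12a1 (for the last 2, log2 ratios over red blood cell-like cells of 1.57 and 2.06), and Col5a1 was lower in them than in red blood cell-like cells (15.7 against 30.3 CPM). Leukocyte-like cells held 25.2 CPM of Col3a1, 13.6 CPM of Col6a1, 17.6 CPM of Col12a1 and 9.73 CPM of Col5a1. The size of these differences, and for Col5a1 the direction, therefore depends on the class taken as background.

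Col5a2 was the exception among endothelial-like cells. It was at 616 CPM (562 to 674) in the 76 cells of the cluster led by Eln and by Gja4, a connexin gene of arterial endothelium, and at 112 CPM (106 to 119) in the 743 cells of the cluster led by Emcn, a log2 ratio of the latter over the former of -2.44 (-2.60 to -2.29). Col5a1, the chain with which it pairs, was at 6.47 and 16.4 CPM in these clusters. A Col5a2 UMI was present in 75.8% of thinned cells of the Eln-led cluster (86.8% without thinning, median depth 8247 UMIs), against 7.02% of red blood cell-like cells (15.0% without thinning). The other members showed no such excess there, with Col1a1 at 225 CPM and Col3a1 at 23.3 CPM.

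Chains of the same trimer did not keep 1 ratio across classes. A ratio of UMIs between 2 genes depends on how well each 3′ end was captured, so the ratios are set against each other between classes and not against a chain count. Col1a2 over Col1a1 was 0.954 (0.940 to 0.967) and 0.944 (0.939 to 0.948) in the immature and mature classes, and 0.839 (0.829 to 0.849) in fibroblast-like cells. In red blood cell-like cells, taken as background, it was 0.814 (0.763 to 0.869), and in stromal progenitor-like cells 1.53 (1.46 to 1.61). How much of the Col1a1 in chondrocyte-like cells is free RNA was not tested, so the ratios of these cells may not compare 2 expressed chains. In chondrocyte-like cells the ratio was 2.65 (2.59 to 2.71), and it reached 4.63 (4.32 to 4.97) in the cluster led by Ihh and Cdkn1c and 4.15 (3.86 to 4.46) in the cluster led by Col10a1, which is made by hypertrophic chondrocytes. In the latter Col1a2 stood at 1113 CPM and Col1a1 at 268 CPM.

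**Figure D4:**
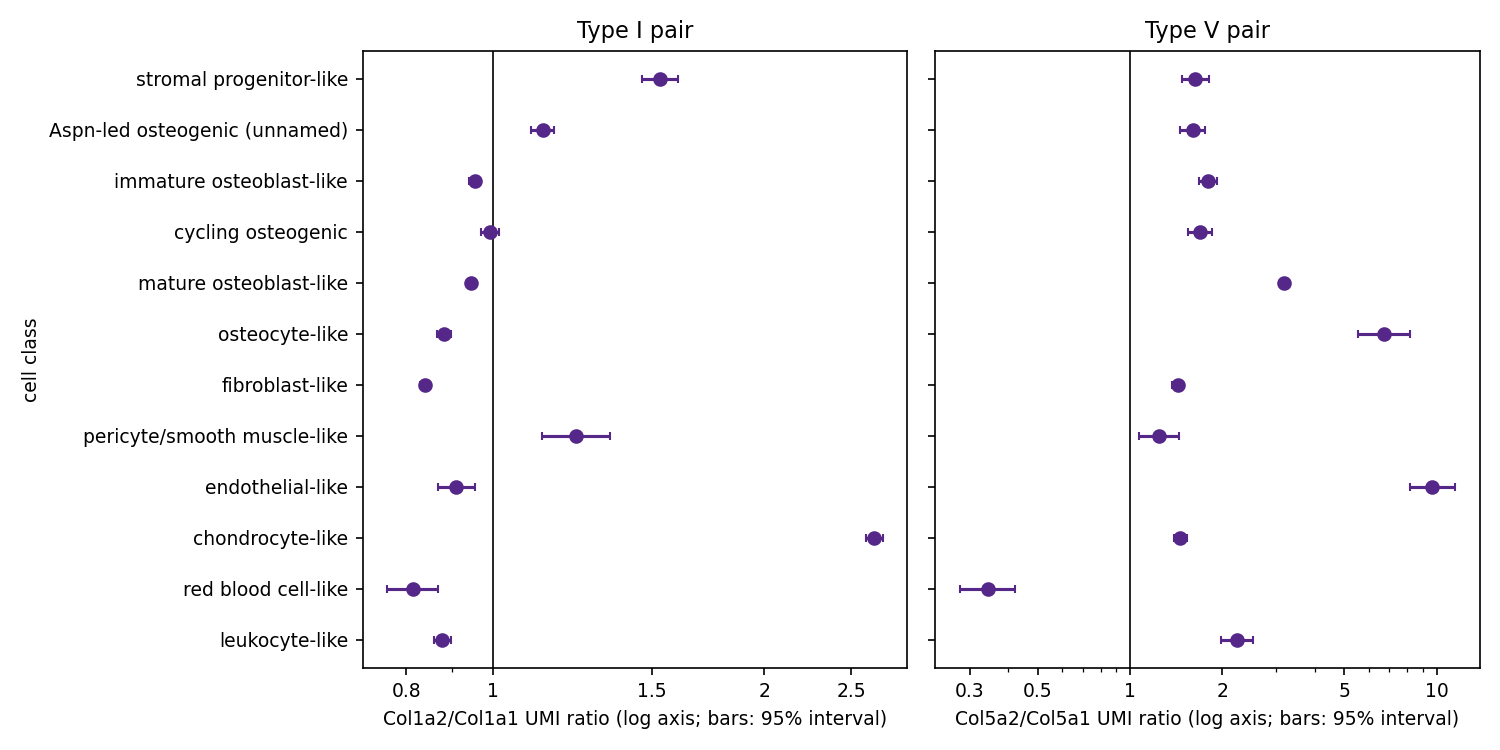
Ratio of UMIs of Col1a2 over Col1a1 (left) and of Col5a2 over Col5a1 (right) in each class with a 95% interval, on log axes with a line at 1. The type I ratio was highest in chondrocyte-like cells at 2.65, and the type V ratio was 1.79 in immature, 6.71 in osteocyte-like and 9.67 in endothelial-like cells. How much of the Col1a1 in chondrocyte-like cells is free RNA was not tested. Col5a1 in endothelial-like cells (15.7 CPM) lay below the red blood cell-like level (30.3 CPM).

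For type V, Col5a2 over Col5a1 was 1.63 (1.48 to 1.81) in stromal progenitor-like, 1.79 (1.67 to 1.92) in immature, 3.18 (3.08 to 3.28) in mature and 6.71 (5.56 to 8.15) in osteocyte-like cells, and 1.43 (1.37 to 1.49) in fibroblast-like cells. It was 0.342 (0.278 to 0.419) in red blood cell-like cells, where the cluster led by Car1 held 42.6 CPM of Col5a1 and 6.70 CPM of Col5a2. Within type VI, Col6a3 over Col6a1 was 1.89 (1.75 to 2.03) in immature osteoblast-like cells, and Col6a2 over Col6a1 was 0.610 (0.554 to 0.671).

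Across the 12 classes, the log2 levels of Col1a1 and Col1a2 had a Pearson r of 0.99, Col6a1 and Col6a2 one of 0.99, Col1a1 and Col22a1 one of 0.94, and Col1a1 and Col6a1 one of 0.30. The classes share 1 library and its free RNA, so these values are descriptions. Over cells within the mature class (259 cells at equal depth), Spearman's rho was 0.84 for Col1a1 with Col1a2, 0.69 for Col1a1 with Col5a2 and 0.11 for Col1a1 with Col3a1.

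The genes whose pattern over the classes was most like that of each of 4 members were found among genes with at least 50 CPM in 1 class. For Col1a1 they were Serpinf1 (r = 0.96), which encodes PEDF, Pdgfc (0.94) and Col24a1 (0.92), another fibrillar collagen, over 12 classes. For Col3a1 they were Cd248 (0.93), Prrx1 (0.93) and Antxr1 (0.93), and for Col12a1 Fbln1 (0.97), Fndc4 (0.97) and Cpxm1 (0.95). For Col22a1 they were Ifitm5 (0.98), a gene of mineralizing osteoblasts, Bglap3 (0.97) and Kazald1 (0.95), with reads of Bglap3 uncertain since it is nearly identical to Bglap and Bglap2. Ifitm5, Bglap and Bglap2 are also markers by which the mature class was named, so the rank of Ifitm5 is in part a description of the classes.

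The reporter divided the osteogenic cells into 237 HC-derived cells, with more than 14 UMIs of the WPRE sequence that follows tdTomato in the reporter transcript, and 583 others, and it cannot be told apart from the Irx3 deletion. Of the members, only Col3a1 differed by 2-fold or more between all cells of these groups, being at 202 CPM in HC-derived and 1226 CPM in non-HC-derived cells (log2 ratio -2.59, -2.70 to -2.49). Of 7903 genes, 0.936% were 2-fold lower and 0.658% 2-fold higher in HC-derived cells. The median depth was 14769 UMIs in HC-derived and 12536 UMIs in other cells, and among cells with at least 10000 UMIs the ratio was -2.59. It was negative in all 18 alternatives, from -3.54 to -1.35.

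The Col3a1 difference was present within each class that held enough cells. In mature osteoblast-like cells it was 23.5 CPM (17.2 to 31.4) in 94 HC-derived and 552 CPM (526 to 578) in 165 other cells, a log2 ratio of -4.49. The HC-derived value was close to the 16.0 CPM of red blood cell-like cells. Among the immature cells the level was 278 CPM against 1679 CPM (log2 ratio -2.59, -2.76 to -2.42), in cycling cells 561 against 2239 CPM (log2 ratio -2.00) and in stromal progenitor-like cells 447 against 1277 CPM (log2 ratio -1.51). In 4 HC-derived osteocyte-like cells no Col3a1 UMI was counted, against 732 CPM in 13 others, and no ratio was taken for so few cells.

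**Figure D5:**
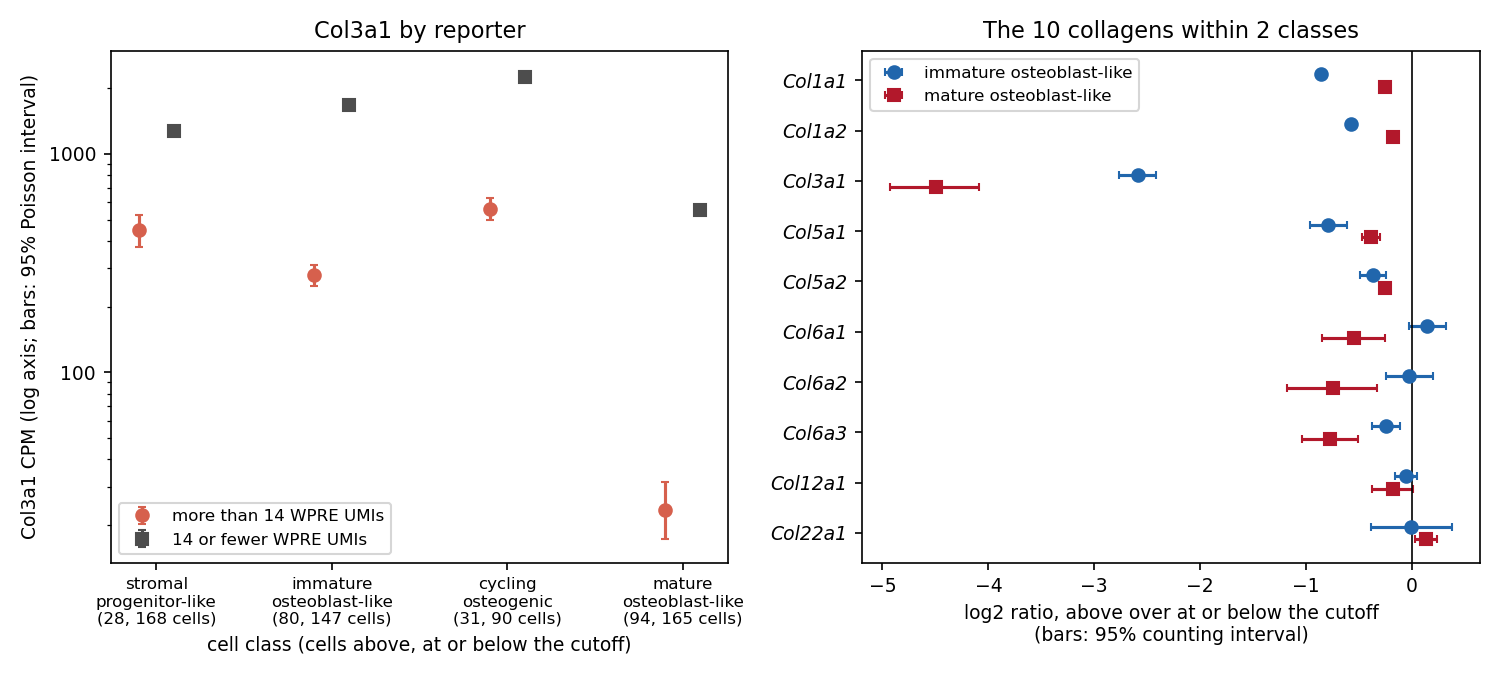
Left, CPM of Col3a1 on a log axis in cells with more than 14 WPRE UMIs (circles) and in other cells (squares) of 4 osteogenic classes, with 95% Poisson intervals. Right, log2 ratio between these cells for each member in immature and mature osteoblast-like cells, where Col3a1 lies farthest from 0 in both classes, at -2.59 and -4.49.

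Over all osteogenic cells the other members differed by less than 2-fold with the reporter. Col1a1 was at 38913 CPM in HC-derived and 39460 CPM in other cells (log2 ratio -0.02), Col5a2 at 1785 and 1837 CPM (-0.04), and Col12a1 at 544 and 773 CPM (-0.51, -0.58 to -0.44). The shares of the classes differed between the groups, since 39.7% of HC-derived and 28.3% of other cells were mature osteoblast-like and 11.8% and 28.8% stromal progenitor-like. Within immature cells alone, Col1a1 was at 9372 CPM in HC-derived and 17040 CPM in other cells (log2 ratio -0.86, -0.89 to -0.83), and within mature cells at 68486 and 81838 CPM (-0.26). The median immature cell was further apart, at 1487 CPM in HC-derived and 7470 CPM in other cells. In stromal progenitor-like cells the Col1a1 ratio was -0.97. In cycling cells it was 0.10, while the medians went the other way, at 1803 CPM in HC-derived and 3240 CPM in other cells. Over all osteogenic cells the sign for Col1a1 changed with the processing, in 9 of 18 alternatives. The Col5a2 ratio was -0.37 (-0.49 to -0.25) within immature and -0.25 (-0.30 to -0.21) within mature cells, and -0.18 and -0.02 in stromal progenitor-like and cycling cells. For Col12a1 it was -0.06 (-0.16 to 0.05) within immature and -0.18 (-0.37 to 0.01) within mature cells, but -0.63 and -0.73 in stromal progenitor-like and cycling cells. Col22a1 was at 99.7 CPM in HC-derived and 23.8 CPM in other cycling cells (log2 ratio 2.02), on 31 and 90 cells. The median cell of both groups held no Col22a1 UMI, so this ratio rests on a minority of the cells. In stromal progenitor-like cells Col6a3 was at 135 CPM in HC-derived and 397 CPM in other cells (log2 ratio -1.54, -2.02 to -1.10), on 28 and 168 cells.

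Fixed lists of genes linked to collagen, and of other collagens, were counted for the same comparisons. The mature over immature counts are to be read beside the 4.42% of all genes that were 2-fold higher and the 18.7% lower. Of 31 of 35 genes for folding, secretion and crosslinking that reached 10 CPM in either class, 15 were 2-fold higher and 3 lower in mature than in immature cells, with a median log2 ratio of 0.75 beside -0.44 over all genes. Lox, a lysyl oxidase that starts crosslinks, was at 970 against 229 CPM, and P4ha2, a subunit of prolyl hydroxylase, at 243 against 57.8 CPM, whereas Loxl1 was at 7.16 against 149 CPM. Of 12 fibril-binding proteins 2 were higher and 5 lower (median log2 ratio -0.83), with Ogn, Tgfbi and Postn among the lower (log2 ratios -3.53, -3.17 and -2.61), and in fibroblast-like cells 12 of 15 were higher than in immature cells (median 2.38), beside 15.5% of all genes (median 0.13), among them Tnxb, Kera and Dpt. Dcn, Fmod, Aspn, Ogn, Kera, Thbs2 and Dpt are also markers by which the fibroblast-like class was named. The excess in fibroblast-like cells is therefore in part a description of the class.

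Of 7 collagen receptors none was higher and 2 were lower in mature cells, beside 4.42% and 18.7% of all genes. The lower ones were Itga1 (3.67 against 129 CPM) and Antxr1 (43.5 against 195 CPM). The receptors had a median log2 ratio of -0.42, close to the -0.44 over all genes. Of 8 genes for collagen cleavage and uptake none was higher and 3 were lower (median -0.38), beside the same shares of all genes. The lower ones were the proteases Mmp9 (12.0 against 2471 CPM), Mmp13 (396 against 5596 CPM) and Mmp14 (169 against 806 CPM). Mmp9, Mmp13 and Mmp14 are also markers by which the immature class was named, so these 3 differences are a description of the class. Of 17 other collagens 4 were higher and 7 lower (median -0.27), beside 4.42% and 18.7% of all genes, with Col5a3, Col4a2 and Col4a1 showing the largest ratios (-4.38, -4.35 and -4.22), and Col15a1, Col14a1 and Col8a2 were the most raised in fibroblast-like over immature cells (6.87, 6.20 and 5.85).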

How the data were processed

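The P6 tibia cells were measured by droplet single-cell RNA sequencing, and cells of the P56 sample were not analysed here. The authors deposited UMI counts per gene and barcode without normalization, aligned with Cell Ranger 3.1.0 to mm10 plus the reporter sequences, and a count matrix of 98 exogenous sequences that holds WPRE. Seurat 3 also stands in the submitters' processing notes, and which annotation release was used is not given in the sources. Counts come mostly from 3′ ends, so rankings and shares across different genes describe captured UMIs and not expression.

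Cells needed 1600 genes or more, and no more than 10% mitochondrial and 50% ribosomal UMIs. With Python 3.11.15, scanpy 1.11.5 and igraph 0.11.9 (seed 1), 2000 variable genes without the members, 30 components and 20 neighbours gave Leiden clusters at resolution 1, and osteogenic clusters were split again at 0.6. A cluster took the marker list best represented among its leading genes, and no name where its 10 leading genes held more markers of another class. That last rule was applied after the clusters and the members' values had been seen. The naming left 363 cells and the Aspn-led sub-cluster unnamed. These rebuilt names can differ from those the study used. Scrublet called 588 of all 14181 barcodes (4.15%) doublets, and none was left out because of this call. Among the cells that passed the filters, 171 of the 363 unnamed and 61 of the 819 endothelial-like cells were called.

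Class levels are CPM of summed UMIs with exact Poisson intervals, shares of cells have exact Clopper-Pearson intervals, both at 95%, and log2 ratios had 1 CPM added. The ratio intervals were tested on simulated Poisson counts only. Those counts hold no spread between cells beyond counting error, so the test does not cover that spread. The WPRE cutoff is the paper's. A comparison counted genes with 10 CPM or more in either class. Named are the members, the 3 genes most correlated with each of 4 of them, and the 3 of largest ratio in each list, plus markers. The members, lists and markers were chosen with earlier results of these data known.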

Additional observations from a re-analysis of the deposited data

How the results depend on the processing

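With 1 mouse, no value has a replicate, and depth limits single-cell shares. Over 18 alternatives, 3 of them chosen after seeing the data, 478 values were recomputed and 27 changed sign. Of these, 22 were ratios of HC-derived over other cells for Col1a1, Col1a2, Col5a1, Col5a2 or Col22a1, and 5 were ratios of 2-fold or more. Where a value moved, the cause was not tested. No paired analysis was possible because there is 1 library. With at most 5% mitochondrial UMIs no cluster was fibroblast-like, so that comparison has no value there.

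The log2 ratios of mature over immature cells for Col1a1 (2.45) and Col3a1 (-1.69) became 3.03 and -0.75 when 1000 genes per cell sufficed, 5.85 and 0.71 when 2000 were needed, 2.67 and -3.10 at 5% mitochondrial UMIs, 4.85 and -1.13 at 20%, 2.97 and -2.26 at resolution 0.6, 2.42 and -1.28 at 1.5, 2.13 and -2.76 with 3000 variable genes, 2.90 and -2.29 with members among the variable genes, 4.60 and 0.12 without doublets, 2.64 and -1.46 as means over cells, 2.64 and -1.49 over UMIs outside the members, 3.30 and -2.13 with classes by marker score, and 2.87 and -2.37 with the Aspn-led sub-cluster as immature. Immature cells numbered 58 with 2000 genes and 139 without doublets, against 227, of which 0 were doublets. Mature cells numbered 89 and 177 in these settings, against 259.

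Col3a1 in HC-derived over other cells (-2.59) was -2.89 at 5% and -2.36 at 20% mitochondrial UMIs, -2.97 at resolution 0.6, -3.27 with members kept, -2.10 without doublets, -2.45 as a mean over cells, -3.04 by score, -1.35 with 1 WPRE UMI, -2.25 with 1 tdTomato UMI, -2.92 with the sub-cluster added and -3.54 as the mean within immature and mature cells.

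Col12a1 in fibroblast-like over immature cells (0.86) was 0.99 with 2000 genes, 0.79 at 20% mitochondrial UMIs, 0.49 and 0.72 at resolutions 0.6 and 1.5, 0.93 with 3000 variable genes, 0.37 with members kept, 0.99 as a mean over cells, 0.52 by score and 0.48 with the sub-cluster added. Col22a1 in the same comparison (-2.00) was 0.59 with 2000 genes, 0.41 at 20% mitochondrial UMIs and 0.13 without doublets.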
